A study of Mus musculus with 5 samples.

Results

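The genes of 7 secreted antagonists of Wnt signaling, Sfrp1, Sfrp2, Sfrp4, Frzb, Dkk2, Dkk3 and Sost, were examined in single cells of the atherosclerotic mouse aortic arch. They were chosen by name, with earlier results of these data known, and all 7 were found among the 16498 genes of the expression table. Single-cell 3′ RNA libraries had been made from the aortic arch of mice fed normal chow for 28 weeks, with living cells sorted from pools of mice (n = 6, which the sources do not tie to a library or a group). Of the 5 libraries, 2 carried the genotype label Oasl1+/+Apoe-/- and 3 the label Oasl1-/-Apoe-/-, so that the lack of Apoe, which makes mice prone to atherosclerosis, was shared by both groups and the targeting of the interferon-induced gene Oasl1 distinguished them. The groups are called the Apoe-/- libraries (replicates 1 and 2) and the labelled libraries (replicates 1 to 3) below. The question was in which aortic cells each antagonist was transcribed, and whether its level per cell type differed between the groups.

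Wnt proteins are secreted, lipid-modified ligands that bind a Frizzled receptor together with the co-receptor LRP5 or LRP6, which stabilizes β-catenin and lets it act with TCF factors on target genes. Antagonists outside the cell act by different routes. Secreted frizzled-related proteins (the Sfrp genes and Frzb) carry a cysteine-rich domain like that of Frizzled receptors and bind Wnt ligands, whereas dickkopf 2 (Dkk2) and sclerostin (Sost) bind the LRP co-receptors. Dickkopf 3 (Dkk3) is a divergent member of its family whose receptor is less well defined. Sclerostin is best known as the osteocyte product that restrains bone formation, and it is also made by vascular smooth muscle, while Frzb is known from cartilage.

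The 5 libraries held 3212 to 4338 cells each, 18260 in all, with median depths of 4495 to 5186.5 unique molecular identifiers (UMIs) per cell. Levels are given as CP10K, UMIs per 10000 UMIs of a cell averaged over the cells of a library, and the library was the replicate. UMIs are counted once per captured 3′ end, without division by transcript length, so levels were compared across cells and not between genes. Of 18094 distinct barcodes, 165 occurred in more than 1 library. For Oasl1 itself, 27 and 16 UMIs were counted under Apoe-/- and 299, 257 and 315 under the label of its loss, where it was thus higher. Per the study, the allele lacks the promoter region and exon 2 of Oasl1, and the positions of the counted tags were not examined. What these counts say about the genotype was thus not tested, and every direction below rests on the labels.

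Cell classes were rebuilt by clustering and named from marker genes. Smooth muscle cells (9256 cells) comprised 5 clusters, each with 11 smooth muscle markers raised, among them Myh11, Acta2 and Cnn1. Fibroblasts (384 cells) had 11 of 12 fibroblast markers raised, and endothelial cells (1475 cells) comprised cluster 4 with 13 and cluster 16 with 14 of 16 endothelial markers raised. Modulated smooth muscle-like cells (630 cells) and cartilage-like cells (138 cells, led by Col2a1, Ibsp and Chad) were separated as well. The sub-clusters of the former had 6 or 7 of 8 modulated smooth muscle markers raised but no smooth muscle marker. Fibroblast markers summed to 231 to 284 CP10K in them and smooth muscle markers to 53.7 to 80.1 CP10K. In fibroblasts these sums were 363 to 404 and 17.7 to 33.1 CP10K. The name thus does not settle the origin of these cells. A further cluster of 887 cells had 3 markers each of smooth muscle, fibroblasts and modulated smooth muscle raised, and it stayed unnamed and is called the intermediate cluster. The 7 genes and the other Wnt pathway genes named below were left out of the genes used for clustering. Since the cells were still clustered on their expression, differences in level between clusters are described without a test.

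The genes lie on separate chromosomes except for Sfrp2 and Dkk2. On GRCm38 they span chr8:23411502-23449632 (Sfrp1, plus strand, up to 3 exons), chr3:83766321-83774316 (Sfrp2, plus strand, 3 exons), chr13:19623104-19632994 (Sfrp4, plus strand, 6 exons), chr2:80411970-80447625 (Frzb, minus strand, 6 exons), chr3:132085292-132180304 (Dkk2, plus strand, 4 exons), chr7:112116017-112159057 (Dkk3, minus strand, 8 exons) and chr11:101962458-101967015 (Sost, minus strand, 2 exons). Sfrp2 is overlapped by the antisense gene Gm26771, and the other 6 genes by no annotated gene. Whether the counting used strand is not given in the sources used here, and without it reads of Sfrp2 and Gm26771 could not be told apart. Promoter sequences, 250 bases before to 50 after the annotated start, were held by the RefSeq table (GRCm38.p6) for 4 of the 7 genes. They are shown because these genes had very different patterns over the classes, with Sost in contractile smooth muscle, Sfrp2 in intermediate and modulated cells and fibroblasts, Frzb in modulated and cartilage-like cells and Dkk2 in endothelium. Capitals mark matches on either strand to 4 motifs. They are the TATA box TATAAA, and the CCAAT box, which reads ATTGG when it lies on the opposite strand. The others are the core bound by TCF factors, CTTTGA, which then reads TCAAAG. The GC box, GGGCGG, was searched as well. The strands given are those of the genes, and each sequence is written 5′ to 3′ on its gene's strand, with chr11:101966966-101967265 for Sost (minus), chr3:83766071-83766370 for Sfrp2 (plus), chr2:80447347-80447646 for Frzb (minus) and chr3:132085042-132085341 for Dkk2 (plus).
Sost: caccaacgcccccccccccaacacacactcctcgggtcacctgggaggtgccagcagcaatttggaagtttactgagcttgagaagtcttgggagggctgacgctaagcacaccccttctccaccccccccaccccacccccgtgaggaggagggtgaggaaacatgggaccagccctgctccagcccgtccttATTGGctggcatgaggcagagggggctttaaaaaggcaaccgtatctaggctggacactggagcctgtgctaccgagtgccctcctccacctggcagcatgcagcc
Sfrp2: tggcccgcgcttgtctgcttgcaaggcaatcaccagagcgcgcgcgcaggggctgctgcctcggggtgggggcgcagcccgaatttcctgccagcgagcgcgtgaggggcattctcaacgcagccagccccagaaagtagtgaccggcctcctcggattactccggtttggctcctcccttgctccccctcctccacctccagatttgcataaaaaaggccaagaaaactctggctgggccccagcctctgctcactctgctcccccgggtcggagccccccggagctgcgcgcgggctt
Frzb: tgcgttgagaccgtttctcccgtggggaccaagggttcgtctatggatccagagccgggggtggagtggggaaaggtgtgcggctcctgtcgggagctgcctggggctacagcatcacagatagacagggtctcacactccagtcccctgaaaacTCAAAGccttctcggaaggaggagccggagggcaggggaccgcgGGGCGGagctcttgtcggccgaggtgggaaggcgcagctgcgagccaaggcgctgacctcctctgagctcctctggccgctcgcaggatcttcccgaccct
Dkk2: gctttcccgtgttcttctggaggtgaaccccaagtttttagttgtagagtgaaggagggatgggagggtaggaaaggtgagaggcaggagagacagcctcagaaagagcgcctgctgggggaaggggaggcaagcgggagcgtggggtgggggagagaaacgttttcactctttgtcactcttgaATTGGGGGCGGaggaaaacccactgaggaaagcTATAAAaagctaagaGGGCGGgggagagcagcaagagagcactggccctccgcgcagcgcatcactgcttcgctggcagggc
The Dkk2 window held a TATAAA at −32 relative to the start, an ATTGG directly followed by a GGGCGG at −65 and −60, and another GGGCGG at −17. The Frzb window held a TCAAAG at −95 and a GGGCGG at −51, the Sost window an ATTGG at −56, and the Sfrp2 window none of these motifs. The CArG box, bound by serum response factor in many contractile genes, was found in none of the 4 windows, Sost included. Over the 32851 promoter windows of the table, TATAAA was found in 13.6%, CCAAT in 37.4%, CTTTGA in 5257 windows, GGGCGG in 35.7% and the CArG box in 1.63%.

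The antagonists differed in the cells that held most of their UMIs. Of all UMIs of a gene in the table, endothelial cells held 85.1% for Sfrp1 and 61.0% for Dkk2, and smooth muscle cells held 92.1% for Sost and 68.9% for Dkk3. For Sfrp2 the UMIs were spread over the intermediate cluster (36.5%), modulated smooth muscle-like cells (26.8%) and smooth muscle cells (25.0%). For Frzb they were spread over modulated smooth muscle-like cells (31.8%), the intermediate cluster (20.9%) and cartilage-like cells (18.3%), and for Sfrp4 modulated smooth muscle-like cells held 44.4%. These shares are pooled over libraries of different makeup, since modulated smooth muscle-like cells were 1.42% and 1.31% of the Apoe-/- libraries against 4.99% to 5.42% of the labelled ones, and smooth muscle cells 61.8% and 63.4% against 40.3% to 40.6%. Most modulated smooth muscle-like cells thus came from the labelled libraries. Leukocytes held at most 2.13% of the UMIs of any of the 7 genes, and 94.4% of the 4748 leukocytes had no UMI of any of them. Modulated smooth muscle-like cells and cells of the intermediate cluster had UMIs of a median of 3 of the genes, smooth muscle cells of 2, and fibroblasts and endothelial cells of 1, without thinning and at median depths of 8661.5, 5844, 4896, 3123 and 3131 UMIs per cell.

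**Figure D1:**
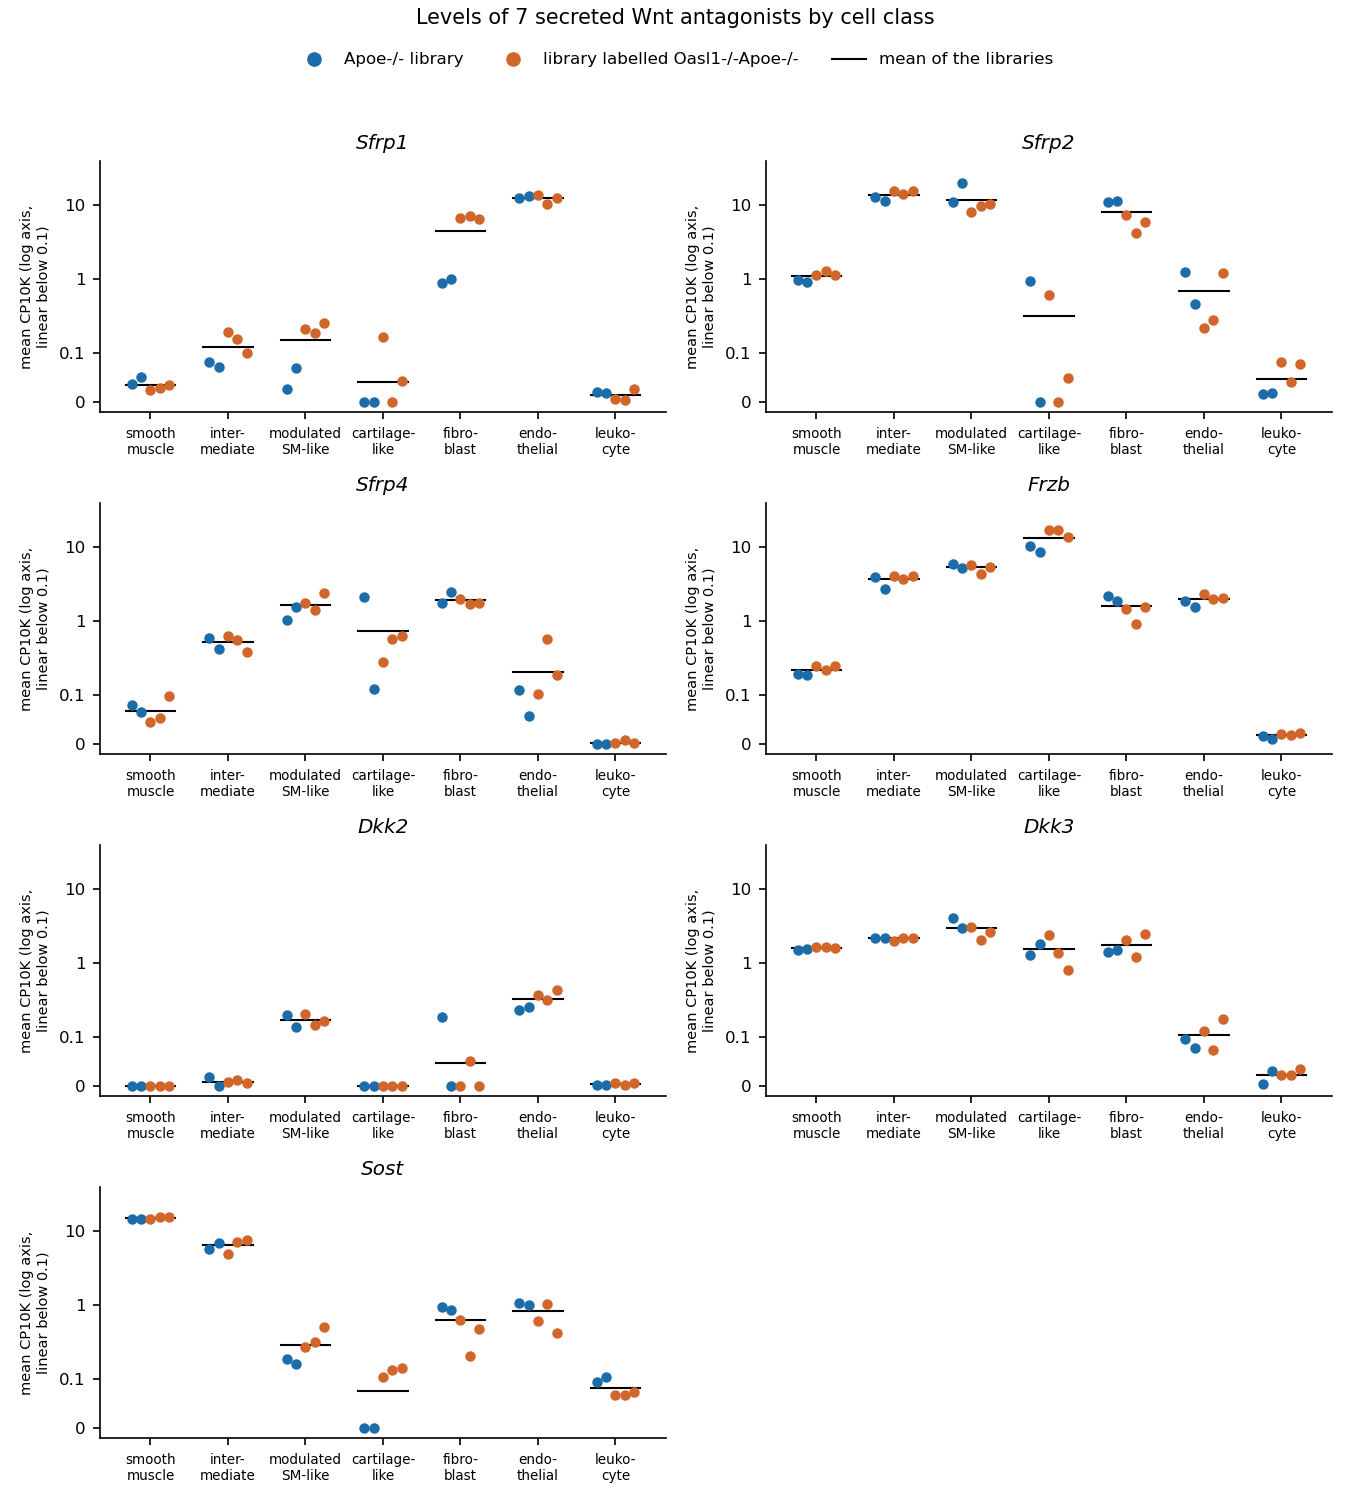
Mean level of each antagonist in CP10K (vertical axis, logarithmic above and linear below 0.1) in 7 cell classes, 1 point per library, with the mean of the libraries as a line. Sfrp1 stood highest in endothelial cells, Sost in smooth muscle cells and Frzb in cartilage-like cells, and the Sfrp1 points of fibroblasts fall apart by group.

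The comparison between the groups was made for each gene with a mean of at least 0.05 CP10K in a class, with limma and Benjamini-Hochberg adjustment over all genes of the class. In smooth muscle cells 5 of the 7 genes passed this filter and 1 passed the test (Sfrp2, higher), beside 6.4% of all 8963 genes tested (4.16% higher and 2.24% lower). In fibroblasts 6 passed the filter and 2 the test (Sfrp1 higher, Sfrp2 lower), beside 2.65% of 9507 genes (1.97% higher and 0.684% lower). All 7 were tested in endothelial cells and 2 passed (Sfrp4 higher, Sost lower), beside 3.42% of 9482 genes. In modulated smooth muscle-like cells 1 of 7 passed (Sfrp1, higher) beside 2.18% of 9085 genes, and in the intermediate cluster 1 of 6 (Sfrp2, higher) beside 1.69% of 9246 genes. No gene passed in any single smooth muscle cluster (4 or 5 tested in each), where 2.6%, 2%, 2.17%, 0.991% and 1.3% of all genes passed in clusters 0, 1, 2, 3 and 5. At an unadjusted p under 0.05 by limma, 0, 2, 2, 3 and 0 of the genes would have passed there. In endothelial cluster 4, 1 of 6 passed (Sfrp2, lower) beside 1.32% of genes, and in endothelial cluster 16 none of 7 beside 1.2% (1 at an unadjusted p under 0.05 by limma). Among the calls within a class, only the fibroblast calls of Sfrp1 and Sfrp2 were kept when any 1 library was left out. The libraries were pools of animals, and nothing in the sources says how the pools of a group differ. The spread between these libraries, which the p-values measure, may thus be technical. Limma also draws the spread of a gene towards that of genes at similar levels, so small p-values do not rest on its own spread alone.

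**Figure D2:**
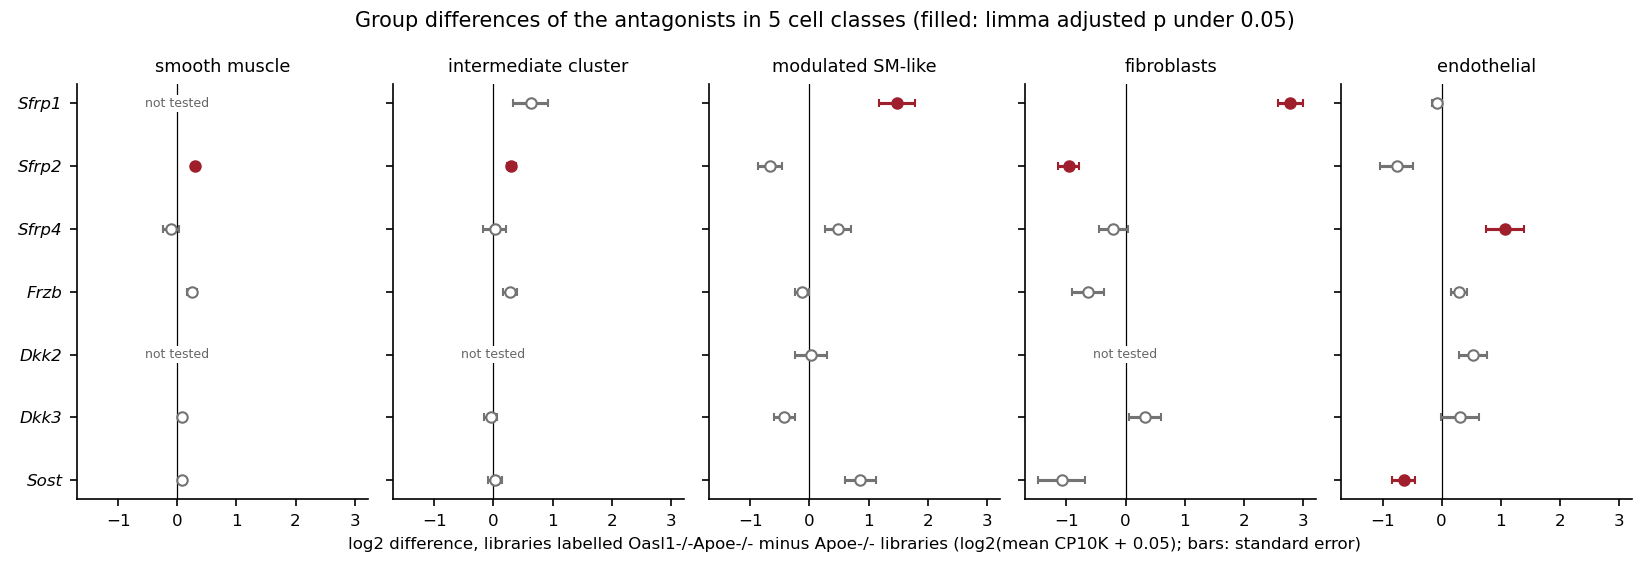
Log2 difference of each antagonist between the labelled and the Apoe-/- libraries (horizontal axis, on log2(mean CP10K + 0.05)) in 5 cell classes, with bars for the standard error and filled points for a limma adjusted p under 0.05. The largest difference was that of Sfrp1 in fibroblasts, at 2.79.

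Sfrp1, a frizzled-related protein, was an endothelial gene in this tissue and was the member with the largest difference between the groups, which lay in fibroblasts. In endothelial cells its level was 12.6 and 13.3 CP10K in the Apoe-/- libraries and 14.1, 10.6 and 12.5 CP10K in the labelled libraries. These ranges overlapped, and the means of 12.95 ± 0.439 (SD, n = 2) and 12.4 ± 1.75 CP10K (SD, n = 3) differed by less than the spread between libraries (log2 difference −0.08, SE 0.0835, limma adjusted p 0.813). A UMI was found in 77.1% of endothelial cells (Wilson 95% interval 74.9 to 79.2) at a median of 3131 UMIs, beside 0.379% of leukocytes at a median of 4091.5 UMIs, and 58.2% and 0.184% with each cell thinned to 1000 UMIs. Intervals of this kind cover counting error only.

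Among the endothelial sub-clusters with at least 100 cells, Sfrp1 ranged widely. It was highest, at 21.5 ± 2.18 CP10K (SD, n = 5), in sub-cluster 2, led by Tmem158, Sfrp1, Vwf and Gkn3. Sub-clusters 1, 3 and 0, all led by Gkn3 and Tmem158, had 17.0, 14.7 and 9.89 CP10K. Sub-cluster 5, led by Cldn5, Klk10 and Stmn2 and holding Nos3, the endothelial nitric oxide synthase, among its leading genes, had 5.71 CP10K. The lowest was sub-cluster 4, led by Ctla2a, Emcn and Sprr1a, with 0.641 and 1.18 against 1.85, 1.09 and 1.57 CP10K. Each library had its lowest value of these 6 sub-clusters there. The 28 lymphatic endothelial cells, set apart by Ccl21a and Lyve1 and found in the labelled libraries alone, had no Sfrp1 UMI, which allows a share of cells with a UMI of up to 10.7%.

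**Figure D3:**
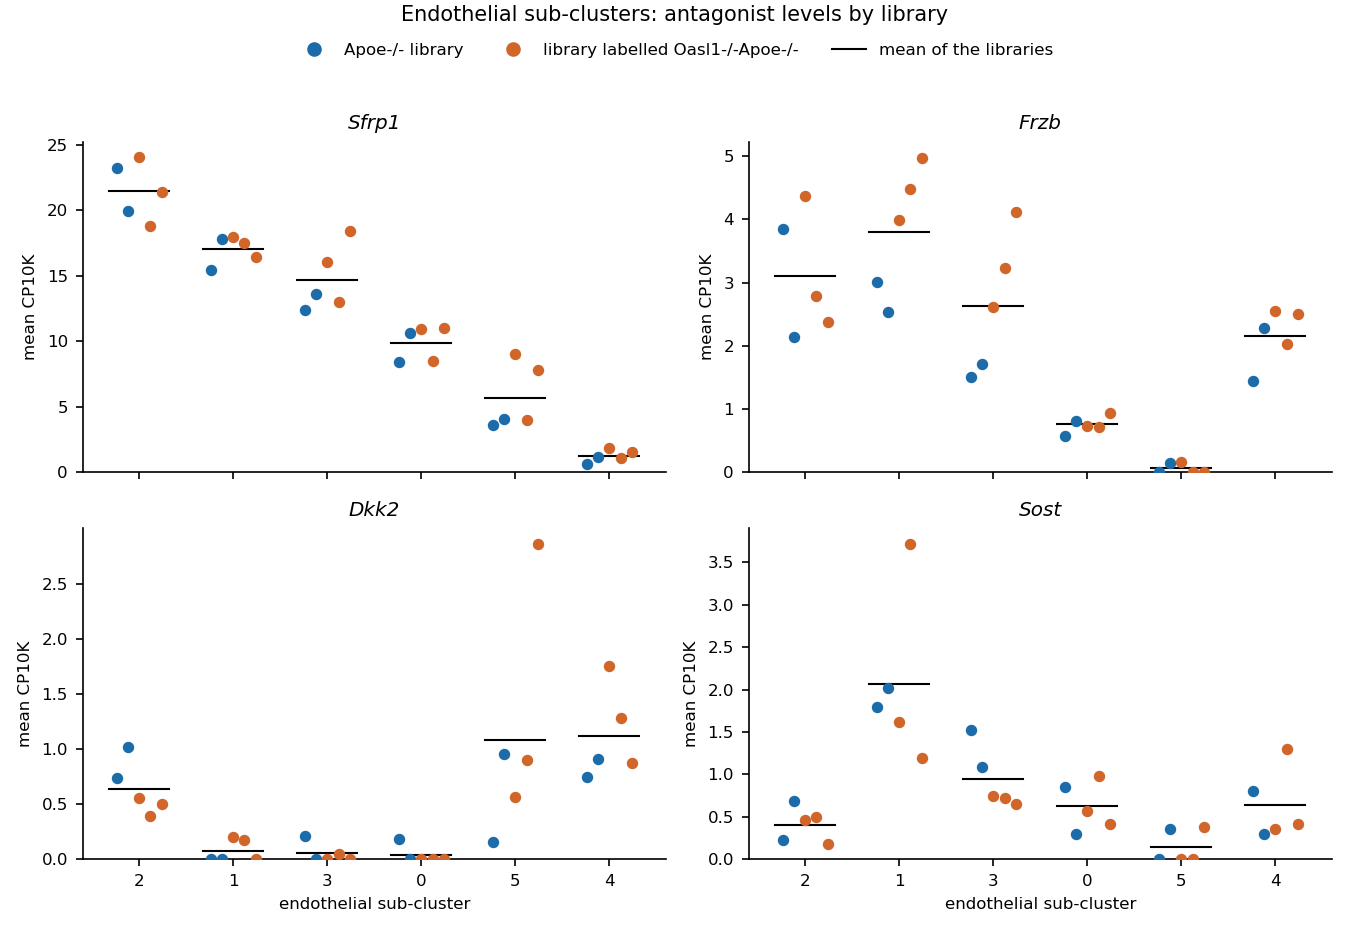
Mean levels of Sfrp1, Frzb, Dkk2 and Sost in CP10K (vertical axes) in the 6 endothelial sub-clusters of at least 100 cells (horizontal axis), 1 point per library, with the mean of the libraries as a line. Sfrp1 was highest in sub-cluster 2 and lowest in sub-cluster 4, whereas Dkk2 was high in sub-clusters 2, 5 and 4 and near 0 in the others.

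In fibroblasts, Sfrp1 was 0.887 and 1.01 CP10K in the Apoe-/- libraries and 6.74, 7.11 and 6.66 CP10K in the labelled libraries. The groups lay far apart, with every labelled library above 6 and neither Apoe-/- library much above 1. The means were 0.9495 ± 0.0881 (SD, n = 2) and 6.84 ± 0.242 CP10K (SD, n = 3), a log2 difference of 2.79 (SE 0.212, limma adjusted p 6.97e-17), so that Sfrp1 rose 6.90-fold on this scale. The raw counts behind these levels were 14 and 14 UMIs in 58 and 59 cells against 147, 213 and 204 UMIs in 80, 98 and 89 cells. A UMI was found in 8.55% of the fibroblasts of the Apoe-/- libraries (Wilson 95% interval 4.71 to 15.02, 10 of 117 cells) and in 47.9% of those of the labelled libraries (42.0 to 53.9, 128 of 267 cells), at median depths of 2977 and 3132 UMIs. With each cell thinned to 1000 UMIs the shares were 5.31% and 34.3% (113 and 248 cells deep enough).

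The makeup of the fibroblasts differed between the groups as well. Sub-cluster 0, led by Gpx3, Clec3b and Cygb and holding C3, Il33 and Apod, had 2 and 3 cells in the Apoe-/- libraries but 35, 46 and 35 in the labelled libraries, and it had the highest Sfrp1, at 11.9, 10.7 and 11.7 CP10K in the labelled libraries. Sub-cluster 1, which every library filled with 17 to 29 cells, had 1.76 and 1.51 CP10K against 6.12, 5.96 and 5.15 CP10K. The groups did not overlap there either, and no test was made on so few cells. In sub-cluster 2, Sfrp1 was listed at 0 in both Apoe-/- libraries and was 1.18, 0.605 and 2.15 CP10K in the labelled libraries. In sub-cluster 5, led by Clec3b and Pi16, the groups overlapped, with 1.03 and 2.004 against 0, 1.46 and 3.58 CP10K, on 8 and 11 against 1, 8 and 4 cells. With the 3 sub-clusters that every library filled weighted equally, the log2 difference was 2.15 (limma adjusted p 1.93e-06).

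Markers of other cell types were summed in the fibroblasts. The 16 endothelial markers summed to 5.81 and 3.06 CP10K in the fibroblasts of the Apoe-/- libraries and to 8.56, 4.90 and 4.93 CP10K in those of the labelled libraries, and 4 of them (Vwf, Tie1, Klk10 and Selp) had no UMI. These sums overlapped between the groups. In endothelial cells the same markers summed to 91.8 to 96.9 CP10K beside 10.6 to 14.1 CP10K of Sfrp1. The 5 monocyte markers, of which Ly6c2 and Chil3 had no UMI in fibroblasts, summed to 1.49 and 1.66 against 7.86, 8.72 and 6.36 CP10K, and the 5 erythroid markers, of which Alas2 had none, to 1.67 and 2.61 against 0.551, 0.453 and 0.781 CP10K. Neither of the latter lists overlapped between the groups. The part of these markers in the Sfrp1 result was not tested.

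**Figure D4:**
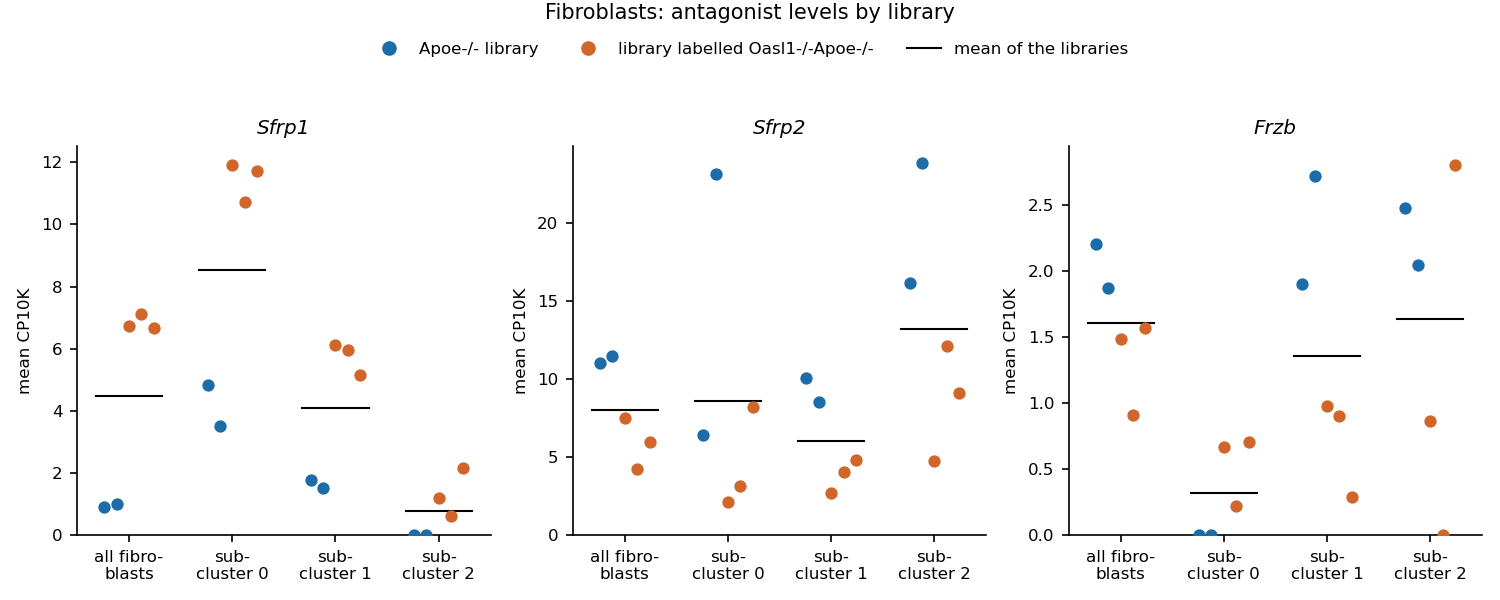
Mean levels of Sfrp1, Sfrp2 and Frzb in CP10K (vertical axes) in all fibroblasts and in fibroblast sub-clusters 0, 1 and 2, 1 point per library, with the mean of the libraries as a line. Sfrp1 was higher in every labelled library than in both Apoe-/- libraries in all fibroblasts and in sub-clusters 0, 1 and 2, where the Apoe-/- points of sub-cluster 0 rest on 2 and 3 cells.

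Whether the fibroblast difference of Sfrp1 exceeded that in endothelial cells was tested by the difference of the 2 log2 differences within each library. It was −2.86 (SE 0.429) for endothelial cells minus fibroblasts, with an unadjusted p of 0.00027 and an adjusted p of 0.38 by limma. Of 8452 genes none passed this test (0%), although 681 had an unadjusted p under 0.05, so no difference between the classes was called. With a pseudocount of 0.5 CP10K the same difference was −2.41 and was called (limma adjusted p 2.64e-07). In modulated smooth muscle-like cells Sfrp1 was low, at 0.0264 and 0.0697 against 0.213, 0.186 and 0.256 CP10K. The groups did not overlap, and the log2 difference was 1.48 (SE 0.302, limma adjusted p 0.0344). The Apoe-/- mean of 0.0481 CP10K was under the filter of 0.05, so Sfrp1 was tested there only because of the labelled libraries. It had 109 UMIs in the 630 cells. The call was lost without labelled replicate 1 (adjusted p 0.165), 2 (0.147) or 3 (0.232), and without the filter on low values. The test against the fibroblast difference gave −1.31 (SE 0.410, limma adjusted p 0.413), with none of 8513 genes past it (0%) and 849 at an unadjusted p under 0.05. With a pseudocount of 0.5 CP10K it was −1.95 and was called (limma adjusted p 0.000424). Sfrp1 in smooth muscle cells was at 0.0367 and 0.0513 against 0.0262, 0.0293 and 0.0359 CP10K, below the filter, and a UMI was found in 1.78% of the cells.

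Sfrp2, another frizzled-related protein, was highest in the intermediate cluster, modulated smooth muscle-like cells and fibroblasts. Its mean was 14.1 ± 1.79 CP10K (SD, n = 5) in the intermediate cluster, 11.9 ± 4.73 in modulated smooth muscle-like cells and 8.04 ± 3.15 in fibroblasts. Neighbors in this order overlapped in range over the libraries, and all 3 were above the 1.10 ± 0.144 CP10K of smooth muscle cells in every library. Sfrp2 was itself among the 10 leading genes of the intermediate cluster. A UMI was found in 71.4% of the cells of that cluster, 23.3% of smooth muscle cells and 1.28% of leukocytes, at median depths of 5844, 4896 and 4091.5 UMIs, and in 48.3%, 8.25% and 0.391% with cells thinned to 1000 UMIs.

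Within contractile smooth muscle, Sfrp2 separated the clusters more than any other member measured there. Cluster 2, with Myl9, Tpm2 and Sost among its 10 leading genes, had the least, with 0.403 and 0.494 against 0.538, 0.757 and 0.650 CP10K. Cluster 5, led by Tnnt2, Mfap4 and Hspb6 and the only one with a fibroblast marker raised (Mfap5), had the most, with 2.37 and 2.55 against 2.30, 2.50 and 2.49 CP10K. The means differed 4.30-fold, in the same order in 5 of 5 libraries. Cluster 3, led by Lsmem1, Flnc, Rrad and the immediate early gene Egr1, had 1.87 CP10K, between them. Frzb and Sfrp4 were also highest in cluster 5, Frzb ranging from 0.147 CP10K in cluster 1 to 0.422 in cluster 5 (2.88-fold), and Sfrp4 from 0.0491 in cluster 0 to 0.144 (2.93-fold). Dkk3 differed 1.28-fold between clusters 3 and 5.

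Sost ran the other way within smooth muscle, with 15.98 CP10K in cluster 2 and 12.9 in cluster 5, a 1.23-fold difference in 5 of 5 libraries. The 5 sub-clusters of the intermediate cluster showed that high Sfrp2 and high Sost could also occur together. Sub-cluster 2, with Adamtsl1, Prss12 and the transcription factor gene Osr1 among its leading genes, had 24.9 and 27.1 against 34.1, 30.6 and 22.5 CP10K of Sfrp2. The same 129 cells had 20.9 and 22.4 against 16.4, 27.2 and 21.3 CP10K of Sost and 6.97 CP10K of Frzb. Their Sfrp2 and Sost were above those of every smooth muscle cluster. Sub-cluster 4, led by Cxcl5, Mt2 and Lcn2, had 16.1 CP10K of Sfrp2 with Sost listed at 0 in both Apoe-/- libraries and at 0.105, 0.0878 and 0.190 CP10K in the labelled ones. Sub-clusters 0 (Itih4, Serpina3n), 1 (Igfbp2, Eln) and 3 (Tnnt2, Rspo3) had less Sfrp2 than both, at 14.8, 6.82 and 12.9 CP10K, and their Sost of 2.72, 5.81 and 7.10 CP10K lay between.

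**Figure D5:**
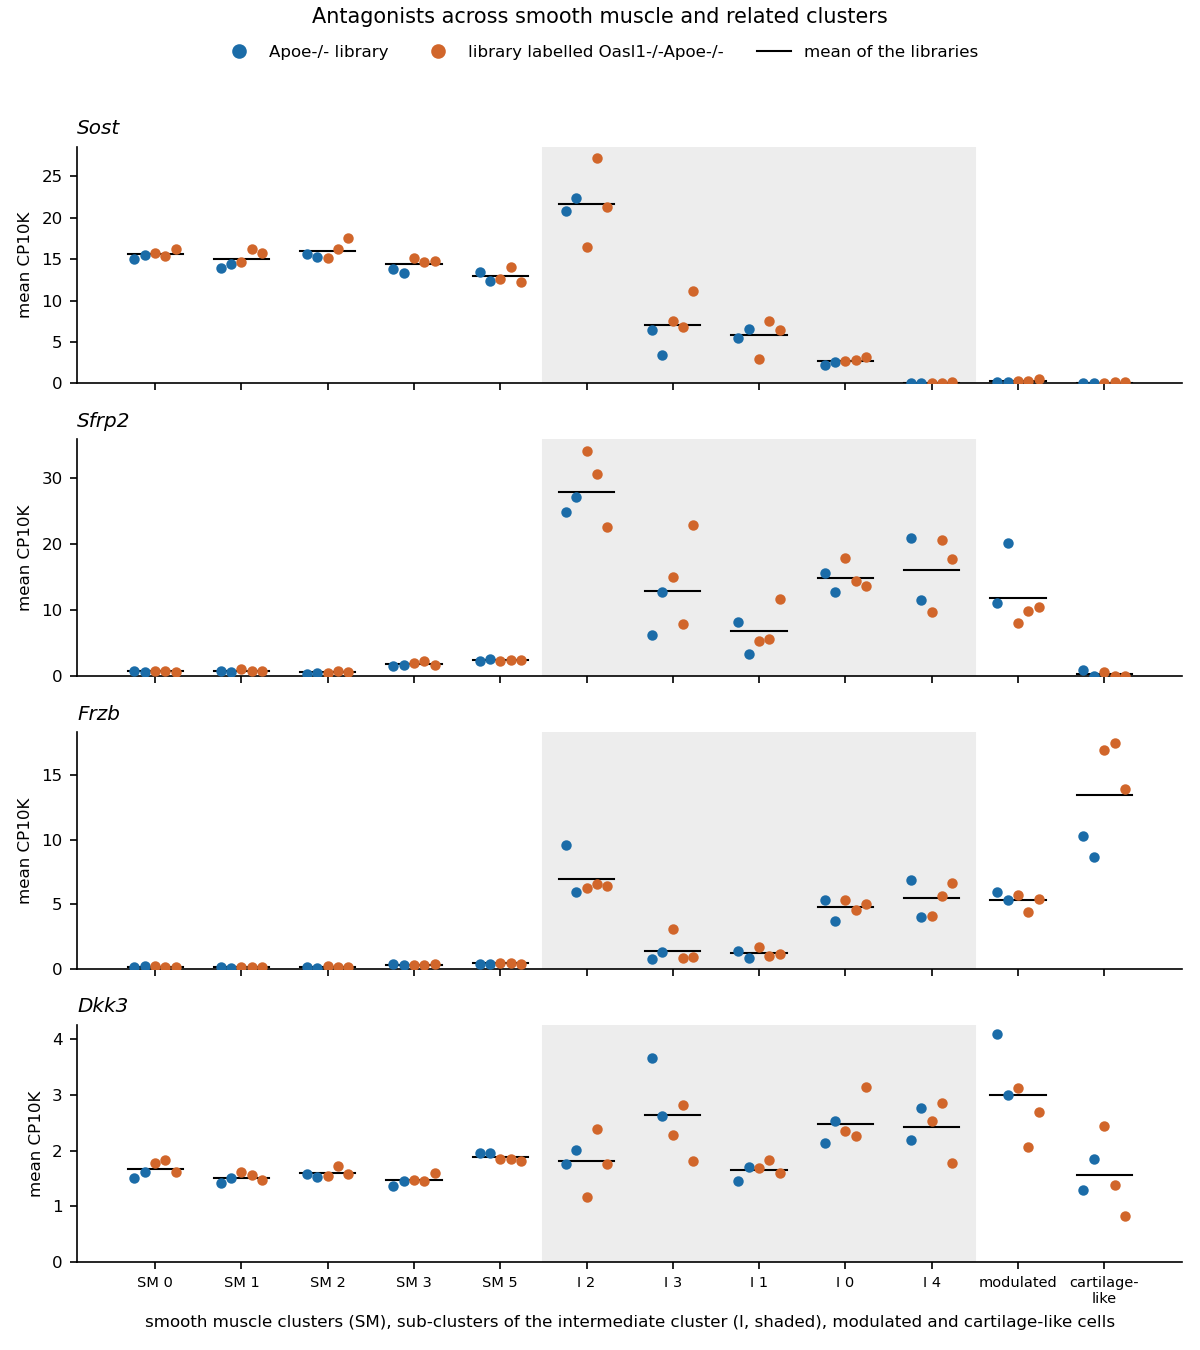
Mean levels of Sost, Sfrp2, Frzb and Dkk3 in CP10K (vertical axes) in the 5 smooth muscle clusters, the 5 sub-clusters of the intermediate cluster (shaded, ordered by their mean Sost), modulated smooth muscle-like cells and cartilage-like cells, 1 point per library with the mean as a line. Sost was high in all smooth muscle clusters and in intermediate sub-cluster 2 and near 0 in intermediate sub-cluster 4, modulated and cartilage-like cells, where Sfrp2 or Frzb was high.

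Between the groups, Sfrp2 differed in opposite directions in smooth muscle cells and fibroblasts. Smooth muscle cells had 0.984 and 0.930 CP10K in the Apoe-/- libraries and 1.16, 1.29 and 1.14 CP10K in the labelled libraries. The means were 0.957 ± 0.0383 (SD, n = 2) and 1.20 ± 0.0799 CP10K (SD, n = 3), and every labelled library was above both others. Sfrp2 rose by a log2 difference of 0.31 (SE 0.0655, limma adjusted p 0.00566), which is 1.24-fold. Without labelled replicate 2 the call was lost (log2 difference 0.25, adjusted p 0.0703), as it was with the 5 clusters weighted equally (0.18, adjusted p 0.104). Where genes were centred within each library before clustering, the sign turned (−0.42, adjusted p 0.00697). Under that clustering 176 of 182 and 171 of 182 cells of the intermediate cluster entered the smooth muscle class in the Apoe-/- libraries, but 3 of 189, 5 of 172 and 5 of 162 did in the labelled libraries. The part of these cells in the turn of sign was not tested. Within smooth muscle clusters 0, 1, 2, 3 and 5 of the main clustering, the log2 differences of Sfrp2 were 0.21, 0.33, 0.48, 0.26 and −0.017. None of them was called, and the part of the mix of clusters in the pooled difference was not tested.

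In fibroblasts Sfrp2 was 11.001 and 11.5 CP10K against 7.52, 4.25 and 5.95 CP10K, with no overlap. The means were 11.2 ± 0.340 (SD, n = 2) and 5.91 ± 1.63 CP10K (SD, n = 3), and Sfrp2 fell by 0.96 on the log2 scale (SE 0.177, limma adjusted p 0.000102). A UMI was found in 45.3% of the fibroblasts of the Apoe-/- libraries (Wilson 95% interval 36.6 to 54.3) and in 30.0% of those of the labelled libraries (24.8 to 35.7), and in 29.2% and 16.1% with thinning to 1000 UMIs. In sub-cluster 1, present in every library, the levels were 10.0 and 8.54 against 2.70, 4.05 and 4.79 CP10K, and in sub-cluster 2 they were 16.2 and 23.8 against 4.77, 12.1 and 9.11 CP10K. The groups overlapped in neither, but they did in sub-clusters 3 and 5, with 12.4 and 3.06 against 25.1, 0 and 0.575 CP10K and 1.95 and 1.67 against 7.16, 8.76 and 0.628 CP10K. The values of sub-cluster 3 rest on 13 and 10 against 17, 8 and 11 cells, and those of sub-cluster 5 on 8 and 11 against 1, 8 and 4 cells. With the sub-clusters weighted equally the log2 difference was −0.90 (limma adjusted p 0.00391). The smooth muscle markers in these fibroblasts summed to 33.1 and 26.8 CP10K against 29.4, 17.7 and 19.0 CP10K, and their part in the result was not tested. The opposite directions in the 2 classes did not pass a test of their difference (1.27, SE 0.315, limma adjusted p 0.405), in which none of 8283 genes passed (0%) and 758 had an unadjusted p under 0.05. With a pseudocount of 0.5 CP10K the difference was 1.12 and was called (adjusted p 0.0119 by limma).

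In the intermediate cluster Sfrp2 was 13.1 and 11.6 CP10K against 15.7, 14.2 and 15.8 CP10K. The groups did not overlap, and the log2 difference was 0.30 (SE 0.0762, limma adjusted p 0.0283). The call was lost without Apoe-/- replicate 2 (adjusted p 0.276) and without labelled replicate 1 (0.264), 2 (0.0675) or 3 (0.103). In modulated smooth muscle-like cells Sfrp2 was 11.01 and 20.1 CP10K against 8.07, 9.80 and 10.4 CP10K. Apoe-/- replicate 2, with 57 cells, stood above all others (log2 difference −0.66, limma adjusted p 0.145). The difference was called, as lower, in 2 of 9 alternatives, with a lowest adjusted p of 5.35e-06 by limma. One of them was the fit without Apoe-/- replicate 1, which leaves 1 library in that group (log2 difference −1.10).

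Endothelial cells had little Sfrp2 and it was unevenly placed. The levels were 1.27 and 0.465 CP10K against 0.220, 0.284 and 1.23 CP10K, so that 1 library of each group was high and the groups overlapped (log2 difference −0.76, limma adjusted p 0.14). In cluster 4, the larger endothelial cluster, they were 1.43 and 0.479 CP10K against 0.0890, 0.364 and 0.248 CP10K. The groups did not overlap, Apoe-/- replicate 1 being far the highest. Sfrp2 fell there by 1.78 on the log2 scale (SE 0.319, limma adjusted p 0.000107), and the call was lost without Apoe-/- replicate 1 (log2 difference −1.04, adjusted p 0.729) and without the filter on low values (adjusted p 0.223). In sub-cluster 1 it was 3.89 and 1.30 against 0.186, 1.49 and 1.58 CP10K, and in labelled replicate 3 the highest value, 7.13 CP10K, was that of sub-cluster 4. Over all endothelial cells Sfrp2 became called, as lower, in 3 of 17 alternatives, with a lowest adjusted p of 5.48e-09 by limma. Among them were the fits without Apoe-/- replicate 2 (log2 difference −1.44, adjusted p 0.0222 by limma) and without labelled replicate 3 (−1.46, adjusted p 2.01e-05 by limma).

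Sfrp4, also a frizzled-related protein, was a gene of fibroblasts and modulated smooth muscle-like cells. In fibroblasts it was 1.77 and 2.50 CP10K against 2.02, 1.70 and 1.75 CP10K, and in modulated smooth muscle-like cells 1.05 and 1.58 against 1.76, 1.42 and 2.41 CP10K. Over the 5 libraries the 2 classes overlapped, at 1.95 ± 0.333 and 1.64 ± 0.499 CP10K (SD, n = 5). In the intermediate cluster its mean was 0.521 CP10K and in smooth muscle cells 0.0688. Neither fibroblasts (log2 difference −0.21, SE 0.250), nor modulated smooth muscle-like cells (0.48, SE 0.220), nor smooth muscle cells (−0.11, SE 0.143) gave a called difference between the groups (limma adjusted p 0.809, 0.31 and 0.729).

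In endothelial cells Sfrp4 was 0.119 and 0.0574 CP10K against 0.103, 0.568 and 0.191 CP10K. It passed the test with a log2 difference of 1.07 (SE 0.327, limma adjusted p 0.0466), although labelled replicate 1 lay within the Apoe-/- range. The call was lost without labelled replicate 2 (log2 difference 0.51, adjusted p 0.646), without Apoe-/- replicate 1 (adjusted p 0.0813) and without Apoe-/- replicate 2 (0.693). The high value of labelled replicate 2 came from sub-cluster 4, where Sfrp4 was 0.0311 and 0 CP10K against 0.0596, 3.90 and 0.513 CP10K and 5.83% of the 120 cells had a UMI. These 120 cells had a median of 9163.5 UMIs and 13 endothelial markers raised. The fibroblast markers Dcn and Pdgfra and the modulated smooth muscle markers Fn1, Vcam1, Col8a1 and Timp1 were raised in them too. The 12 fibroblast markers summed to 14.8 and 13.9 CP10K in the endothelial cells of the Apoe-/- libraries and to 19.8, 25.2 and 28.2 CP10K in those of the labelled libraries. For the 8 markers of modulated smooth muscle the sums were 23.3 and 21.8 against 28.1, 32.2 and 29.7 CP10K. Neither overlapped between the groups, no marker of either list was without a UMI, and their part in the result was not tested.

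Frzb, the frizzled-related protein known from cartilage, was highest in the cartilage-like cells, at 10.3 and 8.66 CP10K in the Apoe-/- libraries and 17.0, 17.5 and 13.9 CP10K in the labelled libraries. The former rest on 10 and 8 cells, and no test was made. A UMI was found in 94.2% of these 138 cells. Modulated smooth muscle-like cells followed, with 5.94 and 5.33 against 5.74, 4.42 and 5.39 CP10K, and then the intermediate cluster with 3.98 and 2.71 against 4.13, 3.74 and 4.15 CP10K. The order of these 3 classes held in 5 of 5 libraries. Endothelial cells (1.98 ± 0.285 CP10K, SD, n = 5) and fibroblasts (1.61 ± 0.482) overlapped, and both were above smooth muscle cells (0.218 ± 0.0278) in every library.

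No class gave a called difference in Frzb between the groups in the main test. In 2 of 18 alternatives for smooth muscle cells it was called as higher. Where genes were centred within each library before clustering, its sign turned there (−0.55) and it was called as lower. In smooth muscle cells the levels were 0.195 and 0.187 against 0.245, 0.216 and 0.247 CP10K (log2 difference 0.25, SE 0.0881, limma adjusted p 0.109), without overlap. Fibroblasts ran the other way, with 2.20 and 1.87 against 1.49, 0.911 and 1.57 CP10K (−0.64, SE 0.273, adjusted p 0.286 by limma). In endothelial cells the levels were 1.91 and 1.57 against 2.36, 2.03 and 2.05 CP10K (0.30, SE 0.131, adjusted p 0.3 by limma). Within endothelium, Frzb was 3.799, 3.11 and 2.64 CP10K in sub-clusters 1, 2 and 3 and 0.0647 CP10K in sub-cluster 5, the one with Nos3 among its leading genes.

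Of the antagonists that bind the LRP co-receptors, Sost was the gene of contractile smooth muscle. Its level there was 14.5 and 14.6 CP10K in the Apoe-/- libraries and 14.9, 15.5 and 15.6 CP10K in the labelled libraries, and a UMI was found in 94.9% of 9256 smooth muscle cells (Wilson 95% interval 94.4 to 95.3) against 2.72% of leukocytes (68.0% and 0.782% with thinning to 1000 UMIs). The libraries were close together, and the means of 14.5 ± 0.0154 (SD, n = 2) and 15.3 ± 0.372 CP10K (SD, n = 3) gave a log2 difference of 0.07 (SE 0.0432, limma adjusted p 0.349). None of 18 alternative settings gave a called difference in these cells, and their log2 differences ranged from 0.05 to 0.13. In the intermediate cluster Sost was 5.85 and 7.08 against 4.98, 7.25 and 7.73 CP10K, with the groups overlapping (0.02, adjusted p 0.978 by limma).

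Sost was much lower in modulated smooth muscle-like cells, at 0.187 and 0.160 against 0.274, 0.322 and 0.503 CP10K. The labelled libraries were above the others, but the log2 difference of 0.86 (SE 0.267) did not pass the test (limma adjusted p 0.147), except without Apoe-/- replicate 1 (0.95, adjusted p 0.044). Smooth muscle markers were lower there too, summing to 53.7 to 80.1 CP10K against 576 to 640 CP10K in smooth muscle cells. Per 100 CP10K of these 12 markers, Sost made up 0.421 CP10K in modulated smooth muscle-like cells, 2.52 in smooth muscle cells and 2.14 in the intermediate cluster (means of 5 libraries).

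In leukocytes, fibroblasts and endothelial cells, Sost was read against the same markers. Leukocytes had 2.44 CP10K of Sost per 100 CP10K of smooth muscle markers and fibroblasts 2.39, close to the 2.52 of smooth muscle cells. Endothelial cells had 7.45, with a range of 4.67 to 10.1 over the libraries, above smooth muscle cells in 5 of 5. In fibroblasts the level was 0.946 and 0.871 against 0.632, 0.207 and 0.480 CP10K, without overlap, and did not pass the test (log2 difference −1.08, SE 0.395, limma adjusted p 0.179). In endothelial cells it was 1.08 and 1.01 against 0.612, 1.04 and 0.427 CP10K and passed (log2 difference −0.64, SE 0.192, limma adjusted p 0.04), with labelled replicate 2 inside the Apoe-/- range. The call was lost without Apoe-/- replicate 1 (adjusted p 0.344), Apoe-/- replicate 2 (0.285), labelled replicate 1 (0.153) or labelled replicate 3 (0.493). The smooth muscle markers summed to 13.4 and 10.0 CP10K against 8.65, 14.2 and 9.14 CP10K in these endothelial cells, highest in labelled replicate 2, and their part in the result was not tested.

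Dkk2, the dickkopf protein that binds the LRP co-receptors, was an endothelial gene that was also found in modulated smooth muscle-like cells. In endothelial cells its level was 0.233 and 0.258 CP10K against 0.377, 0.317 and 0.442 CP10K. Every labelled library was above both Apoe-/- libraries, but the log2 difference of 0.53 (SE 0.237) did not pass the test (limma adjusted p 0.316). It was called in 2 alternatives, with UMIs summed over cells (0.93, limma adjusted p 0.00196) and with limma-voom on those sums (1.01, adjusted p 0.0058). In modulated smooth muscle-like cells it was 0.198 and 0.140 against 0.206, 0.147 and 0.165 CP10K, below endothelial cells in every library and with the groups overlapping. Within endothelium, Dkk2 took a course other than that of Sfrp1. Its means were 1.11, 1.08 and 0.639 CP10K in sub-clusters 4, 5 and 2 and at most 0.0741 CP10K in sub-clusters 0, 1 and 3. Sub-clusters 4 and 5 had the least Sfrp1, and sub-cluster 2 had much of both. Cluster 16, which was led by Emcn, Ctla2a and Plvap and had 28.2% of cells with a Dkk2 UMI, took up a larger part of the endothelial cells in the labelled libraries (71, 71 and 76 of 246, 242 and 215 cells) than in the Apoe-/- libraries (57 and 44 of 381 and 391). Within it the levels were 0.621 and 0.887 against 0.908, 0.820 and 0.672 CP10K, overlapping between the groups.

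No Dkk2 UMI was found in the 9256 smooth muscle cells, which allows a share of cells with a UMI of up to 0.0324%, nor in the cartilage-like cells. Fibroblasts had 6 UMIs in 2 of 384 cells. Genes seen in few cells of a library may have been set to 0 before deposit, but Dkk2 had UMIs in the endothelial cells of every library. The zeros are given as listed.

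Dkk3, the divergent dickkopf, was found in smooth muscle cells, modulated smooth muscle-like cells, the intermediate cluster and fibroblasts and was low in endothelium. Its level was 1.53 and 1.58 against 1.65, 1.69 and 1.61 CP10K in smooth muscle cells, 1.42 and 1.497 against 2.06, 1.22 and 2.53 CP10K in fibroblasts and 0.0960 and 0.0771 against 0.120, 0.0740 and 0.178 CP10K in endothelial cells. Modulated smooth muscle-like cells had 4.10 and 3.01 against 3.13, 2.06 and 2.69 CP10K and the intermediate cluster 2.24 and 2.18 against 1.999, 2.24 and 2.19 CP10K. The groups overlapped in fibroblasts, endothelial and modulated cells and in the intermediate cluster, and no class gave a called difference, the log2 differences ranging from −0.43 in modulated smooth muscle-like cells to 0.34 in fibroblasts (limma adjusted p 0.265 and 0.681). In smooth muscle cells the log2 difference was 0.08 (SE 0.0563, limma adjusted p 0.46).

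Averaged over all cells of a library, all 6 genes past the filter differed between the groups, beside 41.1% of all 9836 genes (20.5% higher and 20.6% lower). Frzb rose from 0.636 and 0.5002 CP10K to 1.01, 0.958 and 1.01 CP10K (log2 difference 0.76, limma adjusted p 4.51e-05), Sfrp4 by 0.68 and Sfrp2 by 0.33 on the log2 scale (adjusted p 0.00018 and 0.000629 by limma). Sost fell from 9.60 and 9.87 CP10K to 6.67, 7.02 and 7.05 CP10K (log2 difference −0.49, limma adjusted p 1.04e-05), and Sfrp1 and Dkk3 fell by 0.19 and 0.18 (adjusted p 0.0431 and 0.0174 by limma). Leaving out any 1 library left between 4 and 6 of these calls. Without Apoe-/- replicate 1 or 2, labelled replicate 2 or labelled replicate 3, Sfrp1 was lost (adjusted p 0.0614, 0.0926, 0.148 and 0.153), and without labelled replicate 2 or 3, Dkk3 was lost (0.0875 and 0.0581). In an average over all cells, fewer cells of a type and less RNA per cell cannot be told apart. The makeup of the libraries differed too, with smooth muscle cells at 61.8% and 63.4% of cells in the Apoe-/- libraries and 40.5%, 40.3% and 40.6% in the labelled libraries. Modulated smooth muscle-like cells made up 1.42% and 1.31% against 4.99%, 5.29% and 5.42%, and cartilage-like cells 0.245% and 0.184% against 0.940%, 1.28% and 1.46%. Within smooth muscle cells Sost differed by 0.07 on the log2 scale, and within modulated smooth muscle-like cells Frzb differed by −0.13.

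The genes whose pattern over 21 classes and clusters was most like that of each antagonist were found among 5811 genes by Pearson's r of log2(mean CP10K + 0.05), a description over units that share libraries. For Sfrp1 they were Bmp4 (r = 0.974), Bace2, Plscr2, Calml4 and Pthlh. For Sfrp2 they were Nbl1 (0.937), itself a secreted antagonist of bone morphogenetic proteins, Cxcl12, Scarf2, Cdh11 and Nnmt. Sfrp4 was closest to Pdgfra (0.962), a receptor that marks fibroblasts, Ltbp2, Pcolce, Mmp3 and Serpina3n, and Frzb to Cx3cl1 (0.965), Unc5b, Ltbp2, Ppic and Scara3. Dkk2 was closest to Emcn (0.941), an endothelial sialomucin, Ecscr, Tcim, Selp and Myct1. Dkk3 was closest to the Wnt receptor gene Fzd1 (0.984), Fxyd1, Pi15, Islr and Cacna2d1, and Sost to Adam33 (0.979), Fbxl22, Ptprz1, Npy1r and E030013I19Rik. Among the antagonists themselves the closest pairs were Sfrp4 with Frzb (r = 0.868) and Sfrp2 with Dkk3 (0.832), and the least alike were Dkk2 and Sost (0.00710).

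The other genes of the pathway were taken from a list of 84 genes of Wnt ligands, their secretion, receptors, R-spondins, other antagonists, transducers and targets, of which 72 were in the table. In smooth muscle cells 38 passed the filter, of which 2 rose and 3 fell, beside 6.4% of 8963 genes called (4.16% higher and 2.24% lower), with a median log2 difference of −0.0018 beside 0.0076 over all genes. The lower genes were the target and matricellular gene Wisp2, from 2.39 and 2.44 to 1.98, 1.92 and 1.89 CP10K (log2 difference −0.32, limma adjusted p 0.00064), the only ligand past the filter, Wnt16, from 0.431 and 0.558 to 0.322, 0.385 and 0.338 CP10K (−0.44, adjusted p 0.00531 by limma), and the feedback inhibitor gene Nkd1 (−0.20, adjusted p 0.0472 by limma). The higher ones were Rspo3, an R-spondin that strengthens Wnt signaling, at 0.0959 and 0.107 against 0.135, 0.150 and 0.154 CP10K (0.37, adjusted p 0.0227 by limma), and the kinase gene Gsk3a (0.27, adjusted p 0.0414 by limma). Of these, only Wisp2 was called whichever library was left out. Wnt16 was lost without Apoe-/- replicate 2 (adjusted p 0.132) or labelled replicate 3 (0.055), and Rspo3, Gsk3a and Nkd1 were each lost without Apoe-/- replicate 2 (0.0521, 0.198 and 0.0765), without labelled replicate 2 (0.0729, 0.104 and 0.187) and without labelled replicate 3 (0.105, 0.109 and 0.195). Rspo3 was also lost without Apoe-/- replicate 1 (0.139), and Gsk3a and Nkd1 without labelled replicate 1 (0.133 and 0.0782). The most abundant genes of the other roles were Ctnnb1, which encodes β-catenin (2.69 CP10K), the Wnt secretion factor Wls (1.28), the R-spondin receptor Lgr6 (1.08) and Wif1, another Wnt-binding antagonist (0.682), and none of these was called.

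In fibroblasts 50 genes of the list passed the filter and 4 rose with none lower, beside 2.65% of 9507 genes called (1.97% higher and 0.684% lower), with a median log2 difference of 0.17 beside 0.022 over all genes. The target Myc rose from 0.186 and 0.355 to 1.04, 1.49 and 1.37 CP10K (log2 difference 2.11, limma adjusted p 1.8e-05), called whichever library was left out. The R-spondin gene Rspo1 was 0 and 0.0417 against 0.304, 0.412 and 0.289 CP10K (2.49, adjusted p 0.00783 by limma) and Wif1 0 and 0.0679 against 0.972, 0.0598 and 0.625 CP10K (2.46, adjusted p 0.0176 by limma), with labelled replicate 2 inside the Apoe-/- range for Wif1. Apc, of the β-catenin destruction complex, was listed at 0 in both Apoe-/- libraries and was 0.322, 0.234 and 0.115 CP10K in the labelled ones (adjusted p 0.0399 by limma). These 3 calls rested on few UMIs. The 3 genes passed the filter through their levels in the labelled libraries, so they could hardly have been called as lower. Apc was lost without Apoe-/- replicate 1 (adjusted p 0.095), Apoe-/- replicate 2 (0.101) or labelled replicate 1, 2 or 3 (0.294, 0.321 and 0.118). Rspo1 was lost without Apoe-/- replicate 1 (0.0729) or labelled replicate 1, 2 or 3 (0.0529, 0.196 and 0.105), and Wif1 without Apoe-/- replicate 1 (0.188) or labelled replicate 1 or 3 (0.4 and 0.471). The ligand Wnt5a, the most abundant in fibroblasts, was 0.625 and 0.921 against 0.411, 0.297 and 0.459 CP10K (limma adjusted p 0.313). No gene of the list was called among 35 tested in endothelial cells, 42 in modulated smooth muscle-like cells and 41 in the intermediate cluster, where 3, 8 and 1 had an unadjusted p under 0.05 by limma. Over all cells 2 of 40 rose and 24 fell, beside 20.5% of 9836 genes higher and 20.6% lower, in libraries whose cell makeup differed between the groups.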

How the data were processed

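Per the labels and the study's methods, the authors mapped 3′ single-cell reads to mm10 with Cell Ranger 3.1.0, filtered cells on genes and mitochondrial share with Seurat 4.0.3, removed doublets with DoubletFinder and deposited natural log values, ln(1 + UMIs per 10000). Reversing the logarithm gave whole UMIs for 100% of values within 0.01 of a whole number, and no doublets were called again. The 7 genes and the pathway list were chosen with earlier results of these data known.

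Cells were clustered anew (2000 variable genes, 12 principal components, 20 neighbors, Leiden resolution 1 with leidenalg 0.10.2) without batch integration, giving 25 clusters, and were named where at least 3 markers were raised at least 2-fold. The details of naming were set after seeing the data, so classes may differ from those of the study. A strict gate on markers per cell left too few cells for a value. Mean CP10K per library and class was tested as log2(value + 0.05) with limma 3.58.1 in R 4.3.3 (trend, group only), for genes with a mean of at least 0.05, and called at a Benjamini-Hochberg adjusted p under 0.05 over all genes. Groups of under 20 cells in a library were not tested. Fold changes on this scale understate those of low genes. The named genes of the pathway were those called and the most abundant of each role. In simulated data the test recovered 80% of 2-fold changes in smooth muscle cells (8848 genes), 53% in endothelial cells (9483 genes) and 11.1% in fibroblasts (9415 genes), and 100%, 100% and 78% of 4-fold changes. The simulated counts were drawn around library sums with a fixed dispersion and without spread between cells, so recovery in the real data may differ. The alternatives were other pseudocounts, filters, units, class definitions, thinning and omission of each library. Gene positions came from GENCODE mouse release 21 and promoters from RefSeq.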

Additional observations from a re-analysis of the deposited data

How the results depend on the processing

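The fibroblast calls of Sfrp1 (log2 differences 0.94 to 3.40) and Sfrp2 (−1.31 to −0.49) were kept in 17 of 18 alternatives each. The exception was thinning to 1000 UMIs, where no gene of the table was called in fibroblasts and the adjusted p was 0.063 and 0.363. Of the genes counted in each class, the number called changed as follows. In smooth muscle cells, where 1 was called, it was 0 with no filter on low values, with thinning and with clusters weighted equally. It was 2 with summed UMIs and with the looser marker gate (added after seeing the data). With genes centred within libraries it was also 2, but there Sfrp2 and Frzb were both called as lower. In fibroblasts, where 2 were called, it was 0 with thinning and 3 with the looser gate, where Sost was called too (−2.28, adjusted p 0.0179). In endothelial cells, where 2 were called, it was 0 with a pseudocount of 0.01, with no filter, with means of log values, with the looser gate and with thinning, and 1 with a pseudocount of 0.5, with resolution 0.5 or 2 and with centred genes. With no filter it was 0 in modulated smooth muscle-like cells, the intermediate cluster and endothelial cluster 4, where 1 was called in each, and with the replicate block it was 1 in endothelial cluster 16, where 0 was. For the differences between classes, where 0 was called, it was 1 with a pseudocount of 0.5 in all 3 and 1 with no filter for smooth muscle minus fibroblasts. The pathway list gave 1 call in smooth muscle cells with no filter, and in fibroblasts 2 with the replicate block and 1 with limma-voom.

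Leaving out 1 library in turn gave 0 to 1 members called in smooth muscle cells, 2 to 2 in fibroblasts, 0 to 2 in endothelial cells, 0 to 3 in modulated smooth muscle-like cells, 0 to 2 in the intermediate cluster, 4 to 6 over all cells, 0 to 1 in each smooth muscle cluster and in endothelial clusters 4 and 16, and 0 to 0 for the differences between classes. For the pathway list it gave 1 to 7 in smooth muscle cells, 1 to 3 in fibroblasts and 0 to 0 in endothelial cells. Signs turned, on the log2 scale, for Sfrp4 in smooth muscle cells without labelled replicate 1 (0.020, against −0.30 at the lowest of the 5 omissions) and in fibroblasts without Apoe-/- replicate 2 (0.039, lowest −0.45), Sfrp1 in endothelial cells without labelled replicate 2 (0.034, lowest −0.17), Sost in fibroblasts with sub-clusters weighted equally (0.23), Frzb in endothelial cells with the looser gate (−0.11), Dkk3 in endothelial cells with thinning (−0.029), and Sfrp2 (−0.42) and Frzb (−0.55) in smooth muscle cells with centred genes. The cause was not tested.

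Over all genes, 574 were called in smooth muscle cells (246 with no filter, 203 with thinning), 252 in fibroblasts (166 with the replicate block, 139 with limma-voom, 47 with equal weights, 0 with thinning) and 324 in endothelial cells (156 with no filter, 130 with the looser gate, 89 with thinning). The deviations of libraries with the same replicate number had correlations of −0.0024 to 0.0429. Since the deviations of the Apoe-/- libraries mirror each other, this cannot tell whether the numbers pair the libraries. With the replicate block, the log2 differences were 2.81 for Sfrp1 and −0.98 for Sfrp2 in fibroblasts and 0.34 for Sfrp2 in smooth muscle cells. Fibroblasts were few (58 to 98 per library), which limits the detection of small differences.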

Other observations

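Within modulated smooth muscle-like cells, Sfrp2 was unevenly placed. Sub-cluster 2, led by Lum, Igfbp2 and Ltbp2 and with Sfrp2 among its 10 leading genes, had 19.8 and 39.5 CP10K in the Apoe-/- libraries and 18.5, 14.8 and 14.0 CP10K in the labelled libraries, on 9 and 10 against 34, 42 and 48 cells. Sub-cluster 4, led by Slurp1, Anxa8 and Crabp2, had 2 and 2 against 37, 27 and 34 cells, with Sfrp2 at 2.67, 5.64 and 3.76 CP10K in the labelled libraries. No test was made on so few cells.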
